A study of Mus musculus with 9 samples.

Results

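Voltage-gated calcium channels of mouse pancreatic islets were followed through 10 subunit genes. They are the pore subunits Cacna1a, Cacna1c, Cacna1d, Cacna1e and Cacna1h, the cytoplasmic beta subunits Cacnb1, Cacnb2 and Cacnb3, and the extracellular alpha2delta subunits Cacna2d1 and Cacna2d2. The members were chosen by gene symbol, and all 10 were found among the 24393 genes counted under a usable symbol. Each of the 10 passed the filter on low counts, so none was left out of the tests. All libraries came from islets of female mice, isolated with collagenase and kept overnight in RPMI medium with 5 mM glucose. The 4 knockout (KO) libraries had the genotype Rip-cre; Ogt f/f, in which Cre recombinase is driven by a rat insulin promoter and removes the floxed gene Ogt. The 5 wild-type (WT) libraries carried floxed Ogt without Cre, with the genotype Ogt f/+ in WT replicates 1 and 3 and Ogt f/f in WT replicates 2, 4 and 5. No control carried Cre, so an effect of the Rip-cre transgene and one of the Ogt deletion cannot be told apart. Run 1 held WT replicates 1 to 3 and KO replicates 1 and 2, and run 3 held WT replicates 4 and 5 and KO replicates 3 and 4. The labels number the later pool inconsistently, and the name run 3 is used here.

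A calcium channel of this family opens when the membrane depolarizes. Each channel is built around 1 pore subunit, which sets the voltage range and drug sensitivity, and the beta and alpha2delta subunits promote its delivery to the membrane and tune its gating. In beta cells, glucose metabolism closes ATP-sensitive potassium channels, the membrane depolarizes, and calcium entering through these channels triggers the release of insulin granules. Cacna1c and Cacna1d encode L-type pores (CaV1.2 and CaV1.3), the targets of dihydropyridines. Cacna1a encodes the P/Q-type pore (CaV2.1), Cacna1e the R-type pore (CaV2.3) and Cacna1h a T-type pore (CaV3.2), which opens at lower voltage.

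Levels are given as CPM, read counts scaled to library size with TMM factors. Libraries held 3796043 to 4462754 counts in run 1 and 5150443 to 6073537 in run 3. The ribosomal RNA gene Rn45s took an uneven part of these counts. Its share was highest in WT replicate 2 of run 1 (28.5%) and WT replicate 5 of run 3 (24.3%), and lowest in WT replicate 4 (9.62%). Ogt, the targeted gene, stood between 54.1 and 83.0 CPM in WT and between 23.7 and 39.3 in KO, so that the groups did not overlap. A gene was called where its adjusted p was under 0.05. Between KO and WT this held for 18.5% of the 12501 tested genes, with 9.56% of them higher in KO and 8.96% lower. The median log2 fold change over all tested genes was 0.02. Whether each library stands for its own animal is not stated in the labels, and the p-values cover only the library-to-library spread, which may be technical. In bulk islets, fewer cells of a type and less RNA per cell cannot be told apart.

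In KO islets the transcripts of 4 subunits were called higher, those of the R-type pore Cacna1e, the P/Q-type pore Cacna1a and the beta subunits Cacnb1 and Cacnb3. None of the other 6 was called in either direction. For Cacnb1 the FPKM values of run 3 went the other way, lower in KO than in WT. The 2 L-type pores Cacna1c and Cacna1d had log2 fold changes of −0.26 and −0.21 that missed the threshold. The 4 higher calls of 10 stand beside the 9.56% of all tested genes called higher. The count of 0 falls in edgeR's quasi-likelihood test stands beside 1 lower in DESeq2 and 0 lower in limma-voom. At an unadjusted p under 0.05 in edgeR's test, 2 members were lower. In either direction 6 of 10 members passed at that level, against 32.2% of all tested genes. The median log2 fold change of the 10 members was 0.31. In 3 members (Cacna1a, Cacna1e and Cacnb3) every KO library lay above every WT library of its run, and in 2 members (Cacna1c and Cacna1d) every KO library lay below, against 11.9% and 11.0% of all tested genes. Over both runs together 2 members had all KO libraries above all WT libraries and 0 had them below, against 5.97% and 5.13%.

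**Figure D1:**
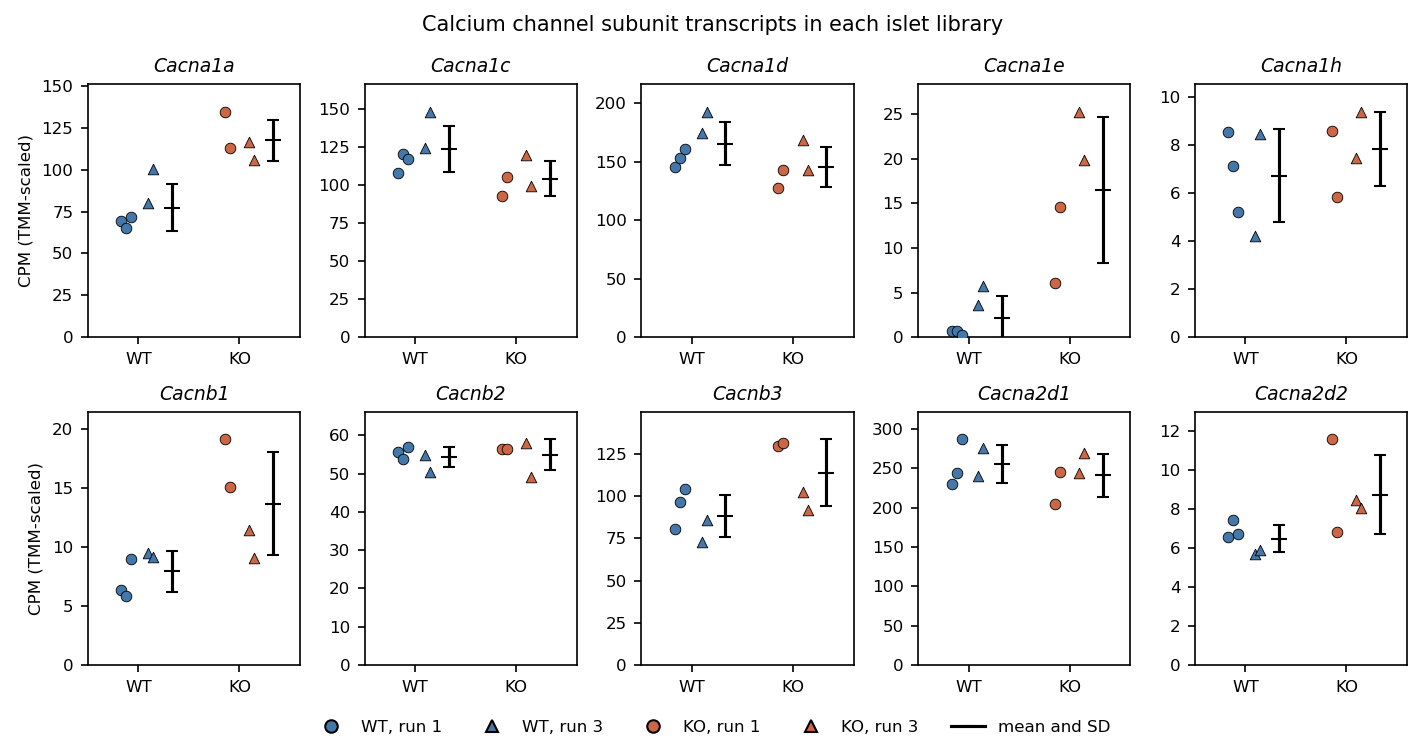
Level of each subunit transcript in every islet library, in TMM-scaled CPM on a linear axis that starts at 0 in each panel; circles are run 1, triangles run 3, and the bar beside each group is the mean with the SD (clipped at 0). For Cacna1a and Cacna1e the 4 KO libraries lie above the 5 WT libraries, while for Cacnb2 the groups share one range.

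The R-type pore Cacna1e showed the widest difference among the members. It was counted at 3, 2 and 1 reads in WT replicates 1 to 3 and at 24 and 34 reads in WT replicates 4 and 5. In KO replicates 1 to 4 it was counted at 24, 60, 152 and 135 reads. On the CPM scale the WT libraries stood at 0.733, 0.648, 0.249, 3.61 and 5.74, and the KO libraries at 6.05, 14.6, 25.3 and 19.8. The lowest KO library therefore lay just above the highest WT library, and within each run the groups were far apart. WT libraries averaged 2.198 ± 2.39 CPM (SD, n = 5), and KO libraries averaged 16.4 ± 8.17 CPM (SD, n = 4). The log2 fold change was 2.82 ± 0.36 (SE, adjusted p = 0.000104 in edgeR's quasi-likelihood test). When genotypes were permuted within runs, the exact two-sided test on mean log2 CPM had p = 0.0167, the smallest value that 60 arrangements allow. Since the WT libraries of run 1 held only 6 reads in all, the ratio is given with its counting interval. It was 19.4-fold in run 1 (95% exact interval 8.56 to 54.4) and 4.84-fold in run 3 (3.64 to 6.54), and these intervals cover counting error only.

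The low end of Cacna1e differed between the runs beyond its genotype difference. Cacna1e was 1.62 higher in run 3 on the log2 scale (adjusted p = 0.00277 in edgeR's test). The run term called 3 of 10 members, against 31.4% of all tested genes, and 4 of 10 against 41.9% at an unadjusted p under 0.05. The other called members were Cacna1d (0.23, adjusted p = 0.0359) and Cacnb3 (−0.32, adjusted p = 0.0152). The authors' FPKM values, which are scaled to gene length, gave Cacna1e a smaller run difference. Its WT libraries were listed at 0.0529, 0.0467 and 0.0180 FPKM in run 1 and at 0.105 and 0.297 in run 3, and its KO libraries at 0.430, 1.01, 1.30 and 1.14. For Cacna1e, the CPM of the whole library total for each unit of FPKM had a median of 13.1 in run 1 and 21.4 in run 3, a ratio of 1.63. The same ratio was 1.67 for Cacnb1 and 1.76 for Cacna2d2, and lay between 1.11 (Cacnb3) and 1.40 (Cacna1h) for the other 7 members. For Cacnb1 the CPM for each unit of FPKM also differed by genotype. It was 2.47, 2.28, 2.53, 3.69 and 2.65 in WT replicates 1 to 5. In KO replicates 1 to 4 it was 2.99, 2.81, 4.78 and 4.89, above the WT libraries of the same run. Cacna1s, the pore of skeletal muscle, had 0 to 1 reads in run 1 and 20 to 24 reads in run 3, at no more than 0.0601 FPKM. Counts of weakly expressed channel genes in run 3 thus held reads that the FPKM values did not follow, and the part of these reads in the genotype differences was not tested. With limma on log2(FPKM + 0.1), a scale that understates the change of low genes, Cacna1e was still called higher in KO (2.35, adjusted p = 0.00221). Over all 23 alternatives its largest adjusted p was 0.0332, without the run term.

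The P/Q-type pore Cacna1a rose as well, from a far higher level. It stood at 69.1, 65.1, 71.6, 80.3 and 100.2 CPM in the WT libraries, and at 135, 113, 117 and 106 CPM in the KO libraries. No KO library reached down to the highest WT library, although WT replicate 5 and KO replicate 4, both of run 3, were close. WT libraries averaged 77.3 ± 14.0 CPM (SD, n = 5), KO libraries averaged 118 ± 12.3 CPM (SD, n = 4), and the log2 fold change was 0.59 ± 0.11 (SE, adjusted p = 0.00201 in edgeR's test). Within run 1 the log2 fold change was 0.83 and within run 3 it was 0.30. The exact permutation test within runs gave p = 0.0167.

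The L-type pore Cacna1d was the most abundant pore transcript in every WT library, and both L-type pores had lower mean levels in KO islets without passing the threshold. Cacna1d stood at 146, 154, 161, 175 and 193 CPM in WT and at 127, 143, 169 and 143 CPM in KO. Within each run every KO library lay below every WT library, but over both runs the groups overlapped. Its log2 fold change was −0.21 ± 0.08 (SE, 95% interval −0.38 to −0.04, adjusted p = 0.0882 in edgeR's test). Cacna1c stood at 108, 120.5, 117, 124 and 148 CPM in WT and at 92.7, 105, 119.6 and 99.0 CPM in KO, with the same ordering within runs and overlap between them. Its log2 fold change was −0.26 ± 0.09 (SE, 95% interval −0.45 to −0.07, adjusted p = 0.0504 in edgeR's test), on the edge of the threshold. In 6 of the 23 alternatives Cacna1c was called lower, among them DESeq2 (−0.27, adjusted p = 0.0443), the fit without WT replicate 1 (−0.29) and the fit without KO replicate 2 (−0.31). Within run 1 and run 3 the log2 fold changes were −0.23 and −0.32 for Cacna1c and −0.20 and −0.25 for Cacna1d. For each L-type pore the exact permutation test within runs gave p = 0.0333.

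The T-type pore Cacna1h was scarce and varied widely. It was counted at 21 to 64 reads per library, which gave 4.22 to 8.55 CPM in WT and 5.84 to 9.39 CPM in KO, ranges that overlapped in part. WT replicates 3 and 4 lay below all KO libraries. KO replicates 1 and 4 lay above all WT libraries, KO replicate 1 only just (8.57 CPM against 8.55 in WT replicate 1). Its log2 fold change was 0.24 ± 0.27 (SE), and the 95% interval from −0.34 to 0.81 leaves room for changes in both directions at this depth.

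**Figure D2:**
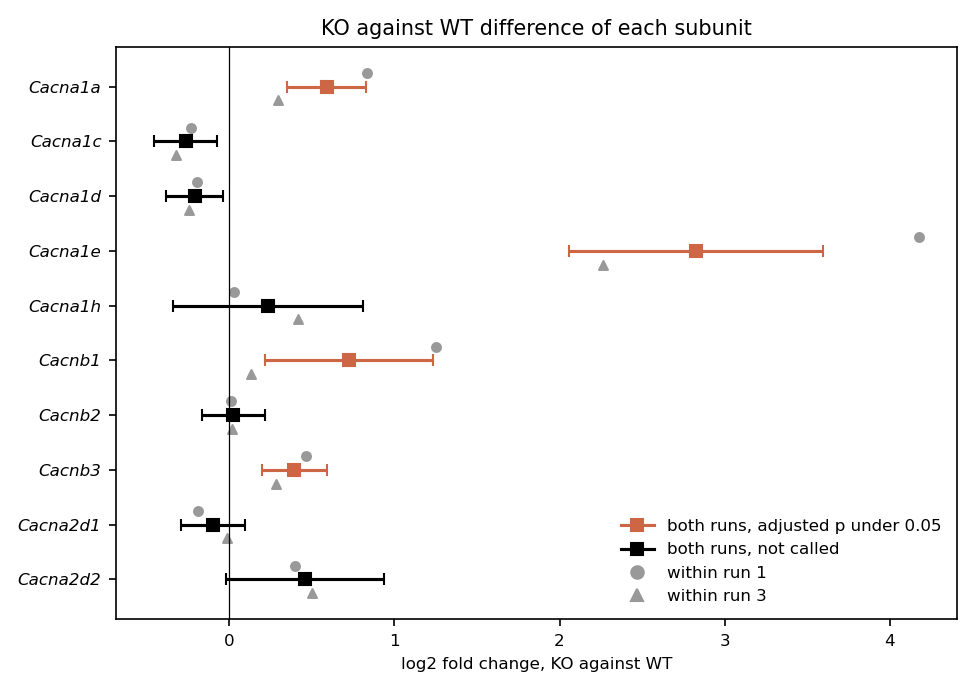
Log2 fold change of each subunit in KO against WT islets; squares with 95% intervals are the fit over both runs (orange where the adjusted p is under 0.05), and grey circles and triangles are the values within run 1 and run 3. Cacna1e lies far to the right at 2.82, Cacna1a, Cacnb1 and Cacnb3 lie above 0, and Cacna1c and Cacna1d lie just below it.

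Per length, the pore transcripts of WT islets were led by the L-type pair. Shares were taken of the summed FPKM of the 5 pore genes within a library, so they do not depend on scaling between libraries. Cacna1d took 50.1% ± 1.73 (SD, n = 5) of the sum in WT and 41.5% ± 3.60 (SD, n = 4) in KO. Cacna1c took 23.4% ± 0.96 in WT and 18.5% ± 1.01 in KO, each with the SD and the same n. Cacna1a took 24.1% ± 1.63 in WT and 35.1% ± 5.01 in KO, and Cacna1e took 0.277% ± 0.257 in WT and 2.65% ± 0.94 in KO. The L-type pair together held 70.5%, 74.5%, 73.3%, 76.5% and 72.7% of the pore FPKM in WT replicates 1 to 5. In KO replicates 1 to 4 it held 53.8%, 59.7%, 63.6% and 62.7%. The 2 sets of shares did not overlap, and the lowest L-type share was that of KO replicate 1. The summed pore FPKM itself overlapped between the groups, at 34.1 ± 4.81 (SD, n = 5) in WT and 36.3 ± 2.75 (SD, n = 4) in KO. These shares are a description of the members and were given no test.

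**Figure D3:**
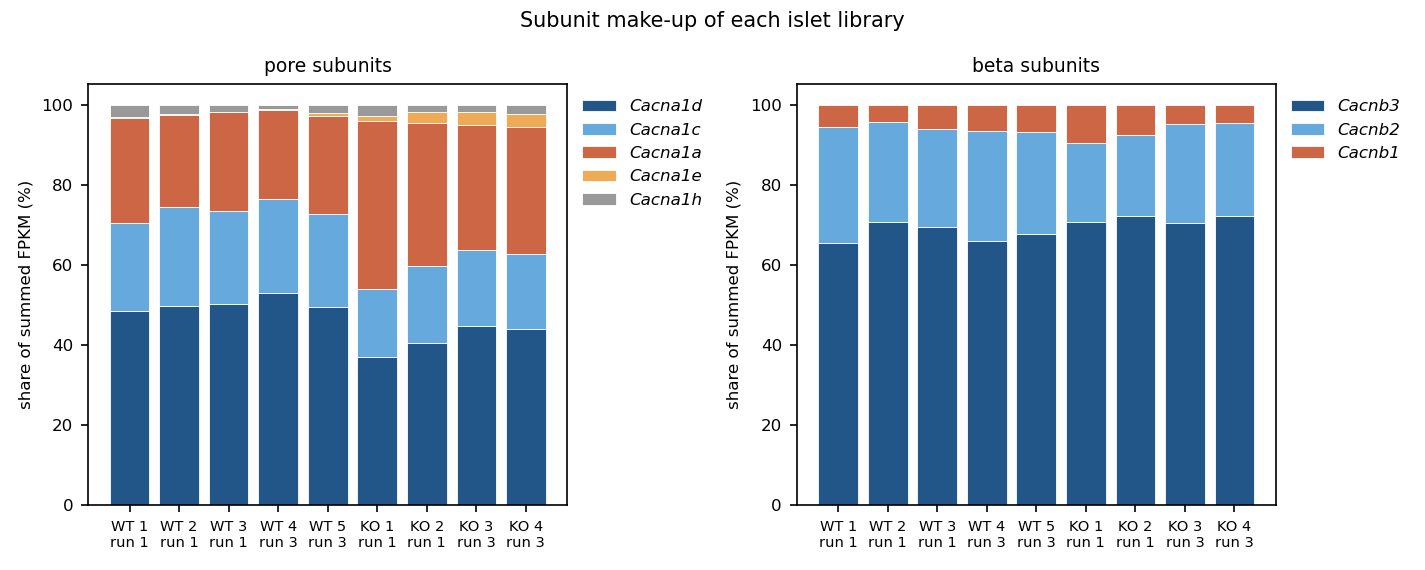
Share of the summed FPKM of the 5 pore genes (left) and the 3 beta genes (right) taken by each gene, in percent, with 1 bar per islet library. The Cacna1a and Cacna1e segments together are wider in the 4 KO bars than in the 5 WT bars, while Cacnb3 leads the beta subunits in every library.

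Ratios within a library showed which pores moved apart. The FPKM ratio of Cacna1a to Cacna1c was 1.18, 0.920, 1.07, 0.940 and 1.05 in WT replicates 1 to 5 and 2.47, 1.85, 1.66 and 1.68 in KO replicates 1 to 4. WT islets thus held near-equal levels of the 2 transcripts, and in every KO library Cacna1a exceeded Cacna1c. The ratio between the L-type pores, Cacna1c to Cacna1d, was 0.468 ± 0.021 (SD, n = 5) in WT and 0.447 ± 0.026 (SD, n = 4) in KO, with overlapping ranges. The difference between these means was smaller than the spread between libraries, while the ratio of Cacna1a to Cacna1d was 0.482 ± 0.047 (SD, n = 5) in WT and 0.860 ± 0.204 (SD, n = 4) in KO, with no overlap.

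The cytoplasmic beta subunits promote delivery of the pore to the membrane, and Cacnb3 and Cacnb2 were the main ones. Cacnb3 stood at 80.4, 96.8, 104.2, 73.0 and 86.2 CPM in WT and at 130.0, 131, 103 and 92.1 CPM in KO. Every KO library lay above the WT libraries of its own run, though KO replicates 3 and 4 lay within the WT range of run 1. The log2 fold change was 0.39 ± 0.09 (SE, adjusted p = 0.0083 in edgeR's test), with 0.46 within run 1 and 0.29 within run 3, and the exact permutation test gave p = 0.0167. The call was lost without the run term (adjusted p = 0.157) and on FPKM values with no filter (adjusted p = 0.0721).

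Cacnb2 was the steadiest member, at 50.4 to 56.9 CPM in WT and 49.2 to 58.0 CPM in KO. Its log2 fold change was 0.02 ± 0.09 (SE), with a 95% interval from −0.17 to 0.21. The FPKM ratio of Cacnb3 to Cacnb2 ranged from 2.26 to 2.84 in WT and from 2.87 to 3.60 in KO. These ranges just failed to meet, and they overlapped when CPM per exon length took the place of FPKM (4.38 to 6.04 and 5.85 to 7.68).

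Cacnb1, the beta subunit best known from skeletal muscle, was called higher in KO, with most of the difference in run 1. It stood at 6.35, 5.83, 8.95, 9.49 and 9.12 CPM in WT and at 19.1, 15.1, 11.5 and 9.10 CPM in KO. In run 1 both KO libraries exceeded all WT libraries, while in run 3 KO replicate 4 lay below both. The log2 fold change was 0.72 ± 0.24 (SE, adjusted p = 0.0462 in edgeR's test), with 1.25 within run 1 and 0.13 within run 3. The call held in 8 of the 23 alternatives, and it was lost without WT replicates 1, 2 or 3 or KO replicates 1, 2 or 3 (log2 fold changes 0.53 to 0.79). On FPKM values with a pseudocount of 0.1 the log2 fold change was 0.44 (adjusted p = 0.353 in limma). In run 3 the FPKM values went the other way, at 2.97 and 3.36 in WT replicates 4 and 5 and 2.80 and 2.16 in KO replicates 3 and 4. The rise of Cacnb1 was thus not seen in the FPKM values of run 3.

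The upstream sequences are shown for the 2 beta subunits called higher in KO, next to the leading pore and alpha2delta subunits, which were not called. The RefSeq promoter table (GRCm38.p6) held 14 transcription starts for 8 of the 10 members. The window runs from base 250 to base 61 before a start, 5′ to 3′ on the gene's strand, and each window shown holds no annotated exon base. The motifs were searched on both strands. The GC box was GGGCGG. The box bound by nuclear factor Y was CCAAT. The core promoter box was TATAAA. The E-box was CACGTG. The cyclic AMP response element was TGACGTCA. Capitals mark the matches, on either strand, and in these windows no match overlapped another.
Cacnb3, chr15:98632078-98632267, plus strand: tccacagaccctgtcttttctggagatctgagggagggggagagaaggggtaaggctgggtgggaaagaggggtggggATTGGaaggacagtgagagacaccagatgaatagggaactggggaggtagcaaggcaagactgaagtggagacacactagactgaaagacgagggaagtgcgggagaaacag
Cacnb1, chr11:98022688-98022877, minus strand: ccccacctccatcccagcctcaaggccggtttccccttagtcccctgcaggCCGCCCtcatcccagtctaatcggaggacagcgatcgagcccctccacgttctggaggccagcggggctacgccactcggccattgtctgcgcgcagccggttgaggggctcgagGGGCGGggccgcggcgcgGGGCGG
Cacna1d, chr14:30353547-30353736, minus strand: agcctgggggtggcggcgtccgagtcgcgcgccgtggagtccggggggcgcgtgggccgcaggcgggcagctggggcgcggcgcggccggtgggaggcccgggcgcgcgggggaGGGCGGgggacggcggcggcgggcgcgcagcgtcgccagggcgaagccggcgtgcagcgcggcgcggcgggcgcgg
Cacna2d1, chr5:15934441-15934630, plus strand: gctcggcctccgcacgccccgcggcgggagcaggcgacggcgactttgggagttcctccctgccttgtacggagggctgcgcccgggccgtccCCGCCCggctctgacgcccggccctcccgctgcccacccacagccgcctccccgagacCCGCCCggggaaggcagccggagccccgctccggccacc
GGGCGG matched 3 times for Cacnb1, 2 times for Cacna2d1, 1 time for Cacna1d and 0 times for Cacnb3, whose window held 1 match to CCAAT. Of 32851 windows of this length, 22.8% held GGGCGG and 26.7% held CCAAT. The core promoter box, the E-box and the cyclic AMP response element were in 8.73%, 4.03% and 0.700%, and the windows shown held none of them. Bases closer to the start than base 61 were not searched. A core promoter box there would be missed in every window, so its absence says nothing about these promoters. GC content was 54.7% for Cacnb3, 71.6% for Cacnb1, 87.4% for Cacna1d and 79.5% for Cacna2d1, against a median of 51.6%. No motif searched was in all 4 windows. The matches also differed between starts of 1 gene. The window of the other Cacnb3 start, with 51 annotated exon bases, held 1 match to GGGCGG and 0 to CCAAT. That of the other Cacnb1 start held none of the motifs. The window of the other Cacna1d start held 3 matches to TATAAA, 2 of them overlapping on opposite strands, and 1 to CCAAT. That window lay in annotated exon over its 190 bases.

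The alpha2delta subunits raise the number of channels at the membrane and are the binding sites of gabapentin. Cacna2d1 had the highest read counts of the members, at 754 to 1840 reads per library. It stood at 230.1, 244, 287, 240.2 and 276 CPM in WT and at 205, 245, 244 and 270.0 CPM in KO, so the groups overlapped. The log2 fold change was −0.10 ± 0.09 (SE), with a 95% interval from −0.29 to 0.10. Cacna2d2 was sparse, at 5.72 to 7.45 CPM in WT and 6.82 to 11.6 CPM in KO. Its log2 fold change of 0.46 ± 0.23 (SE, 95% interval −0.02 to 0.94) did not pass the threshold (adjusted p = 0.175 in edgeR's test). Of the summed alpha2delta FPKM, Cacna2d1 took 97.3% ± 0.92 (SD, n = 5) in WT and 96.0% ± 1.94 (SD, n = 4) in KO.

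In WT islets the members ranged widely in level, and neighbours in the order often exchanged places. On the FPKM scale Cacnb3 (32.3 ± 3.42) and Cacna2d1 (32.2 ± 2.99, SD, n = 5 for each) led and could not be ranked beyond their spread. Cacna1d (17.1) came at rank 3 and Cacnb2 (12.5) at rank 4 in all 5 WT libraries. Cacna1a (8.21) and Cacna1c (7.99) exchanged places between WT libraries, as did Cacna2d2 (0.894) and Cacna1h (0.716) below Cacnb1 (2.81). Cacna1e (0.104) was last in every WT library. In KO libraries Cacna1a took ranks 3 to 5 and stood above Cacna1c in all 4, and Cacna1e took ranks 8 to 10.

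The difference between KO and WT was next compared between runs and between control genotypes. Within run 1, 3 of the 10 members were called higher (Cacna1a, Cacna1e and Cacnb1) against 3.13% of all tested genes, and 0 lower against 2.92%. Within run 3, 1 was called higher (Cacna1e) against 3.93%, and 0 lower against 4.24%. At an unadjusted p under 0.05, in either direction, 4 of 10 members passed within run 1 and 5 of 10 within run 3, against 23.0% and 22.5%. The test of the difference between runs called 0 of 10 members and 0% of all tested genes in edgeR's test. At an unadjusted p under 0.05 it gave 3 of 10 members, against 5.95% of all tested genes. They were Cacna1a (a log2 difference of −0.55), Cacna1e (−1.94) and Cacnb1 (−1.13), each smaller in run 3. Their adjusted p was 0.795 in each case, so the size of the 3 differences was not shown to depend on the run. Between f/+ and f/f controls 0 of 10 members and 0% of all tested genes were called, and 0 members reached an unadjusted p under 0.05, against 3.18%. Both f/+ libraries were in run 1, where WT replicate 2 was the only f/f control. The absence of calls therefore cannot show that the control genotypes are alike. Cacna1e had the widest estimate there, −1.70 ± 0.87 (SE) on the log2 scale. Within run 1 it stood at 0.733 and 0.249 CPM in the f/+ libraries and at 0.648 CPM in WT replicate 2. The estimate thus depends on the run term of the model.

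Other subunits of the family gave no call. Of 16 further pore, beta, alpha2delta and gamma subunit genes, 9 were tested, and edgeR's test called 0 higher and 0 lower. Among all tested genes 9.56% were called higher and 8.96% lower, so with 9 genes a count of 0 lies near these shares. At an unadjusted p under 0.05, 0 were higher and 1 lower, beside 32.2% of all tested genes in either direction. Both DESeq2 and limma-voom called 0. Cacna1b, the N-type pore of neurons, was the nearest to a call, with WT libraries at 18.7 ± 2.96 CPM (SD, n = 5) against 14.0 ± 2.57 CPM (SD, n = 4) for KO (log2 fold change −0.42 ± 0.17 SE, adjusted p = 0.104). At 1.56 FPKM in WT it lay above the members Cacna1h and Cacna1e. The T-type pore Cacna1i had a log2 fold change of 0.83 (adjusted p = 0.212), and was called without WT replicate 4 (1.44, adjusted p = 0.0382). The other 7 genes, all gamma subunits (Cacng1 to Cacng3 and Cacng5 to Cacng8), did not pass the filter.

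Among genes whose products bind or regulate these channels, several rose in KO islets, and those with the lowest p are described. Rem2 and Gem belong to the RGK family of small GTPases, which bind beta subunits and block high-voltage-activated channels. Rem2 stood at 3.66, 4.21, 7.21, 4.37 and 5.74 CPM in WT and at 10.6, 15.3, 11.96 and 14.1 CPM in KO. Gem stood at 5.37, 3.56, 3.98, 6.32 and 6.42 CPM in WT and at 7.56, 11.7, 12.6 and 14.97 CPM in KO. For both genes every KO library exceeded every WT library. Rem2 rose by 1.36 ± 0.24 (SE) on the log2 scale (adjusted p = 0.00112), and Gem by 1.13 ± 0.22 (SE, adjusted p = 0.00259, both edgeR). Within runs Rem2 had log2 fold changes of 1.34 and 1.36, and Gem of 1.13 and 1.11. Both calls held in all 23 alternatives.

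**Figure D4:**
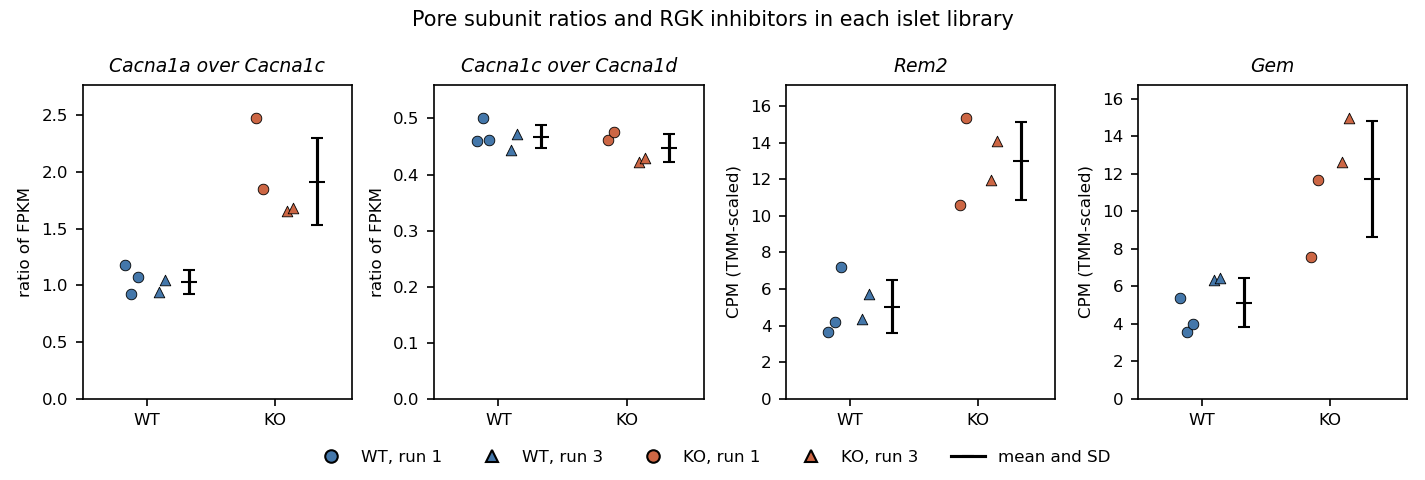
FPKM ratios of Cacna1a to Cacna1c and of Cacna1c to Cacna1d, and CPM of the RGK genes Rem2 and Gem, in every islet library; circles are run 1, triangles run 3, bars are the mean with the SD, and each axis starts at 0. The 4 KO libraries lie above the 5 WT libraries in 3 panels, and the ratio of the L-type pores overlaps.

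Of the 22 genes in that list of channel partners, 17 were tested, 6 were called higher and 1 lower, with a median log2 fold change of 0.15. Among all tested genes 9.56% were called higher and 8.96% lower. The higher calls numbered 3 without both WT replicates 2 and 5 and 2 without the run term, where 0 were lower. Calm3, a gene for the calcium sensor calmodulin that is bound to the pore, rose with a log2 fold change of 0.32 ± 0.07 (SE, adjusted p = 0.00703 in edgeR's test). It has related copies that may share reads, so its value is uncertain. The 1 gene called lower was Cabp1, a neuronal calcium-binding relative of calmodulin, named here after its value was seen (12.2 ± 6.16 CPM in WT, 5.25 ± 2.55 CPM in KO, SD, n = 5 and 4). The scaffolds that tie channels to granules, Rims2 and Rimbp2, did not pass the test (log2 fold changes 0.05 and 0.13). These also were picked after their values were seen.

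Genes that act on the calcium signal were listed next, against the same shares of all tested genes. Of 24 genes of calmodulin kinases, calcineurin, NFAT and CREB coactivators, 23 were tested, 4 rose and 4 fell, with a median log2 fold change of −0.10. These counts were 2 higher and 1 lower without the run term or against f/f controls alone. Camkk2, a kinase activated by calcium and calmodulin, rose by 0.89 ± 0.16 (SE, adjusted p = 0.00132). Nfatc1, a transcription factor dephosphorylated by calcineurin, rose by 0.57 ± 0.13 (SE, adjusted p = 0.00601). Rcan2, a calcineurin regulator, fell by 0.60 ± 0.11 (SE, adjusted p = 0.00181), and Ppp3cb, a catalytic calcineurin subunit, fell by 0.37 ± 0.10 (SE, adjusted p = 0.0138), all in edgeR's test. The Ppp3cb call held in 18 of the 23 alternatives, and it was lost without WT replicate 4 (−0.34) or KO replicate 2 (−0.31). Of 13 sodium and cation channel genes that shape the depolarization, 11 were tested, 0 rose and 1 fell. In this list 2 were higher and 2 lower at an unadjusted p under 0.05, beside 32.2% of all tested genes in either direction. DESeq2 and limma-voom called 0 higher. The gene that fell was Trpm5, a calcium-activated cation channel, at 94.9 ± 31.5 CPM in WT (SD, n = 5) against 44.1 ± 17.9 CPM in KO (SD, n = 4), and its log2 fold change was −1.10 ± 0.20 (SE, adjusted p = 0.00147 in edgeR's test).

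Likeness of profiles was measured by the root mean square difference of run-centred log2 CPM over the 9 libraries, among 10808 candidates. Genes outside these lists with the profile nearest to a member called higher are given. For Cacna1e they were Igf2bp1, an RNA-binding protein gene (0.434), Dlk1, a Notch-family ligand gene (0.460), and Chst8, a sulfotransferase gene (0.499), where Cacna1e itself varied by 1.499. For Cacna1a they were Zfp407 (0.0565), Dscam (0.0613) and Zfp52 (0.0786), against 0.342 for Cacna1a itself. For Cacnb3 they included Ndufa4 (0.0597) and Magee1 (0.0628), and for Cacnb1 Gfra1 (0.143), Tuft1 (0.168) and Marveld2 (0.177). A likeness over 9 libraries is a description, and it includes the genotype difference itself.

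Markers of islet cell types moved in part with the genotype, and their part in the channel differences was not tested. Of 8 beta cell markers 4 fell, and of 6 alpha cell markers 1 rose, beside 8.96% of all tested genes called lower and 9.56% called higher. Of 4 delta cell markers 1 rose, Rbp4 (log2 fold change 1.31), and of 2 PP cell markers 1 rose, Pyy (0.80), both named after their values were seen. The summed delta markers ranged from 993 to 2039 CPM in WT and from 1320.3 to 3253 in KO, and the summed PP markers from 1605 to 2060 in WT and from 2052 to 3676 in KO. Of 5 autonomic neuron markers 1 rose, with summed levels of 15.2 to 52.2 CPM in WT and 21.9 to 62.6 CPM in KO. Of 4 tested Schwann cell markers 1 rose, with summed levels of 5.47 to 34.8 CPM in WT and 8.76 to 33.3 CPM in KO. Of 5 tested smooth muscle and pericyte markers 1 rose, Pdgfrb (0.54), with summed levels of 45.7 to 97.0 CPM in WT and 65.5 to 124 CPM in KO. Of 5 tested macrophage markers 1 rose, Lyz2 (0.78), with summed levels of 31.8 to 48.5 CPM in WT and 33.6 to 60.6 CPM in KO. Both were named after their values were seen. For the 5 tested fibroblast markers the median difference was 0.57 on the log2 scale. Of these, 0 were called in edgeR's test or DESeq2, and 2 were called higher in limma-voom. At an unadjusted p under 0.05, 3 of these markers were higher, beside 32.2% of all tested genes in either direction. None of these markers was at 0 in all libraries. Of 9 acinar markers 2 were called lower in edgeR's test, 0 in DESeq2 and 9 in limma-voom, with summed levels of 100.3 to 5513 CPM in WT and 66.3 to 1906 CPM in KO. For acinar markers the median difference on the log2 scale was −1.84 in run 1 and 0.16 in run 3. With their level as a covariate, Cacna1a, Cacna1e and Cacnb3 were still called and Cacnb1 was not (0.57, adjusted p = 0.2).

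Exons of 6 members overlap genes on the opposite strand in the GENCODE M21 annotation (GRCm38), and the labels and processing notes do not say whether the counting used strand. The shared exon bases came to 3.81% for Cacna1a (chromosome 8, 84388440 to 84640246) and 4.67% for Cacna1d (chromosome 14, 30039939 to 30491455, with Chdh). They came to 1.62% for Cacna1h, 1.77% for Cacnb1 and 1.03% for Cacna2d2, and the widest of 3 overlaps of Cacnb2 was 4.67%. Cacna1e (chromosome 1, 154390731 to 154884501, minus strand), Cacnb3 (chromosome 15, 98630840 to 98644529, plus strand), Cacna1c and Cacna2d1 shared none.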

How the data were processed

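RNA from frozen islets was made into stranded total RNA libraries with a low-input kit, per the labels' protocols. The deposited files give whole-number read counts for 24420 gene symbols and FPKM values for 24347, with 1 column per library. Per the submitters' processing notes, the build was mm10 and the tools included edgeR, Cuffdiff 2.2.1, Bowtie2 2.2.4.0 and FastQC. Which tool made which table, and how FPKM was scaled between libraries, those notes do not say. The 27 symbols that had been turned into dates were left out (0.133% to 0.186% of counts).

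Genes were tested by edgeR's quasi-likelihood test (edgeR 4.0.16, limma 3.58.1 and R 4.3.3), with TMM scaling, the default low-count filter and a model of run and genotype, which tested 12501 genes. P-values were adjusted by Benjamini-Hochberg over all tested genes and called under 0.05. Standard errors were derived from the fold change and F statistic, and log2 CPM used a prior count of 2. No pair of libraries of a group, within or across runs, agreed within sampling noise (chi-square of 3.73 to 64.2 per degree of freedom), so none was merged. Only edgeR's fit of run and genotype was also tried on simulated counts, drawn with the spread that edgeR had estimated from these libraries. The other fits were not tried in this way. FPKM served for shares, ratios and limma fits on log2(FPKM + 0.1) or log2(FPKM + 1). Alternatives included DESeq2 1.42.0, limma-voom, RLE and upper quartile scaling, other filters, f/f controls alone and leaving out each library.

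The members and gene lists were chosen with earlier results of these data known. Named genes were all members, Ogt, up to 4 called genes of each list with the lowest p (or 2 where none was called) and the 3 nearest profiles of each called member at an average log2 CPM of at least 2. One list gene was found under an older symbol. Of the genes this rule names, 2 are not reported here.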

Additional observations from a re-analysis of the deposited data

Results flagged for a closer look

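Of 66 groups of 4 or 5 libraries examined (members, named genes and subunit shares), 1 held a library far from the others, and chance alone gives about 1 in 20. The cation channel gene Trpm5 stood at 149 CPM in WT replicate 3, while the other 4 WT libraries lay between 71.9 and 93.9 CPM. Without WT replicate 3 Trpm5 was still called lower in KO, with a log2 fold change of −0.94. No member met this criterion, and no member's KO difference was called as differing between runs after adjustment.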

How the results depend on the processing

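Cacna1a and Cacna1e were called higher in all 23 alternatives, with log2 fold changes of 0.48 to 0.69 and of 0.79 to 3.22. The lowest value for Cacna1e came from log2(FPKM + 1), a scale that shrinks low genes. Cacnb3 was called in 21 and Cacnb1 in 8 of them. The count of members called higher was 4, and it was 2 without the run term and 2 on FPKM values with no filter. It lay between 3 and 4 with single libraries left out. The count called lower was 0, and it was 1 (Cacna1c) in DESeq2, with RLE size factors, with no filter and with Rn45s left out, and 0 to 1 with single libraries left out. Of all genes called higher there were 1195, and of all genes called lower 1120. Without the run term these were 380 and 292, with FPKM and no filter 619 and 655, and with the acinar covariate 742 and 679. The f/f controls alone gave 765 higher. Leaving out both WT replicates 2 and 5, chosen after seeing the data for the highest Rn45s share of each run, gave 742 higher. The cause was not tested. The L-type share of pore FPKM was 73.5% in WT and 59.96% in KO, and from CPM per exon length 71.6% and 58.2%. No scaling moved the median of all genes by over 0.1 on the log2 scale. Counts of 1 to 60 reads for Cacna1e in run 1, and under 80 reads per library for Cacna1h, Cacnb1 and Cacna2d2, limit those values. No paired analysis was made, because the labels used here link no KO library to a WT library.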
